A study of Mus musculus with 12 samples.

Results

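RbFox1 eCLIP peaks that stood alone on their strand, yet had another peak within 10 kb, numbered 2036 of the 24831 peaks in the human list, or 8.20%. They are called neighboured single peaks here. Peaks were sorted within chromosome and strand, and the gap was the number of bases between the end of 1 peak and the start of the next. A neighboured single peak had gaps of over 500 nt on both sides and at least 1 gap of 501 to 10000 nt. The peaks were thus chosen by measured values, the positions of the peaks called in this comparison. Position, enrichment and p come from the same comparison, so all values below are descriptions and were not tested.

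The experiment used T-REx-293 cells, a human embryonic kidney line that makes RbFox1 from a tetracycline-inducible gene when doxycycline is added. All libraries behind the human list came from 77-5, a line grown from 1 clone, which also carries the mouse TrkB-BAC minigene with both of its (T)GCATG clusters. The list compares 2 immunoprecipitated libraries of cells given doxycycline for 48 h (+Dox) with 2 of cells without it (No Dox). The dose is 0.5 mg/ml in the sample labels and 0.5 μg/ml in the study's figure legends. The 2 +Dox libraries of the 32-1 line, which lacks both clusters, and 6 input libraries of unassigned condition did not enter this comparison.

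RbFox proteins bind RNA through an RNA recognition motif that prefers the sequence (U)GCAUG, and they are best known as regulators of alternative splicing. Where they sit matters: binding in the intron downstream of an alternative exon usually favours its inclusion, and binding upstream usually favours skipping. Much of their binding lies deep in introns, where they act with other splicing proteins in the large assembly of splicing regulators (LASR). How far a peak lies from the next one on the same RNA strand therefore describes how bound positions are spread along transcripts. No human annotation or genome sequence was used here, so peaks are given by hg38 position, counted from 1, and not by gene, exon, intron or motif, and whether 2 neighbours lie in the same transcript was not tested.

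Each peak has 1 log2 fold enrichment of +Dox over No Dox and 1 −log10 p, both computed by the authors and merged over the replicates. Read counts and values of single libraries were not used here: the depth behind a peak is unknown, and no value below carries a replicate error. The lowest log2 fold enrichment and the lowest −log10 p of the list were both 3.0. Of the 2036 neighboured single peaks, 1605 (78.8%) had a log2 fold enrichment identical to 9 decimals to that of at least 1 other peak of the list. This share was 60.0% over the whole list, 84.9% in single peaks with no same-strand neighbour within 10 kb and 19.5% in groups of 10 or more peaks. Values 0.5 apart were also common. For 1631 (80.1%) of the neighboured single peaks the list holds a value 0.5 higher or lower to within 2e-06. Over all peaks of the list this held for 63.1%. For a step of 0.4 it held for 46 (2.26%) of the neighboured single peaks. Whether these values rest on few reads was not tested, since read counts were not used here.

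The neighboured single peaks had a median log2 fold enrichment of 3.47, an 11.1-fold enrichment, with quartiles of 3.21 and 3.85. The lowest was 3.0 and the highest 6.33. Most of them therefore lay close to the lower end of the list. In all, 1070 (52.6%) were below 3.5, 594 from 3.5 to below 4, 279 from 4 to below 4.5, 80 from 4.5 to below 5, and 13 at 5 or above. Their share of all peaks fell along these steps, from 11.5% of the peaks below 3.5 to 1.21% of the peaks at 5 or above. Their median −log10 p was 6.17, with quartiles of 4.26 and 9.92, and 5 reached the ceiling of 400. In the whole list 510 of the 24831 peaks reached it, 340 of them in groups of 10 or more peaks. Their median width was 95 nt, with quartiles of 73 and 122 nt.

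Set beside the other classes of the list, the medians of the neighboured single peaks lay between those of the isolated and the grouped ones in each of these measures. The 2530 isolated single peaks, with no same-strand neighbour within 10 kb, had a median log2 fold enrichment of 3.43, a median −log10 p of 5.26 and a median width of 100 nt. The 7314 peaks in groups of 2 or 3, where each lies at most 500 nt from the next, had medians of 3.58, 7.86 and 88 nt. In groups of 4 to 9 the median enrichment was 3.80, and in groups of 10 or more it was 4.08. The neighboured single peaks were thus 0.037 above the isolated ones on the log2 scale, and their difference from the groups of 2 or 3 was -0.11. The difference from isolated peaks depended on the rule: it was 0.0053 with a lower gap limit of 1000 nt and turned to -0.0042 when the classes were formed from peaks past a stricter threshold alone. This stricter threshold, log2 fold enrichment of 4 or more and p no higher than 1e-05, was met by 287 of the 2036 (14.1%), where 29.0% of the whole list met it. The share was 8.89% in isolated peaks and 20.8% in groups of 2 or 3. Among the 248 most enriched peaks of the list, 2 were neighboured single peaks.

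**Figure D1:**
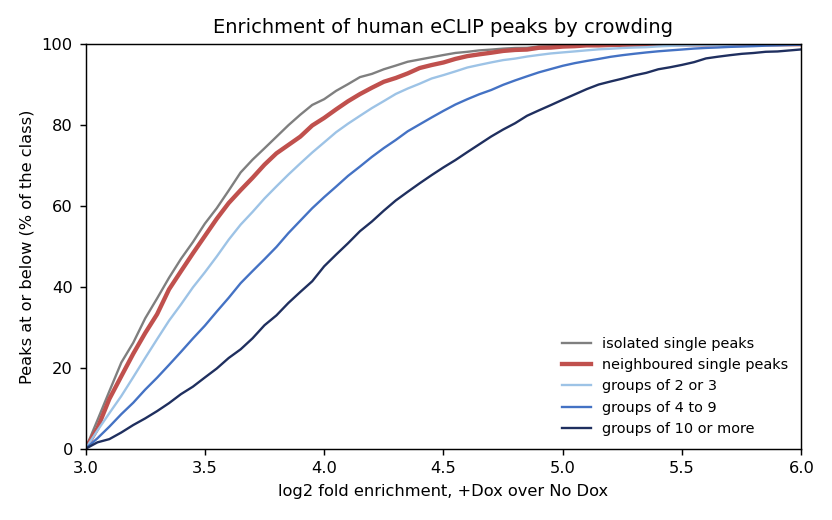
Cumulative share of peaks (vertical axis, % of each class) against log2 fold enrichment of +Dox over No Dox (horizontal axis), 1 line for each of the 5 classes of peaks. The line of the 2036 neighboured single peaks (red) lies between that of the isolated peaks and that of groups of 2 or 3 at the medians, 3.47, 3.43 and 3.58. In the upper tail, at 5.1, it lies just above the isolated line, at 99.66% against 99.64%.

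The gap to the nearest same-strand peak ran from 501 to 9987 nt, with a median of 1511 nt and quartiles of 811 and 3842 nt. Short gaps were the most common. A gap of 501 to 1000 nt was found for 705 peaks (34.6%), one of 1001 to 2000 nt for 481, one of 2001 to 5000 nt for 489 and one of 5001 to 10000 nt for 361. Per 1000 nt of gap these are 1410, 481, 163 and 72.2 peaks. Of these ranges, 501 to 1000 nt had the highest median enrichment. The shortest gaps within it, 501 to 600 nt, had a lower median of 3.44. The median log2 fold enrichment was 3.53 at 501 to 1000 nt, 3.45 at 1001 to 2000 nt, 3.44 at 2001 to 5000 nt and 3.43 at 5001 to 10000 nt.

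**Figure D2:**
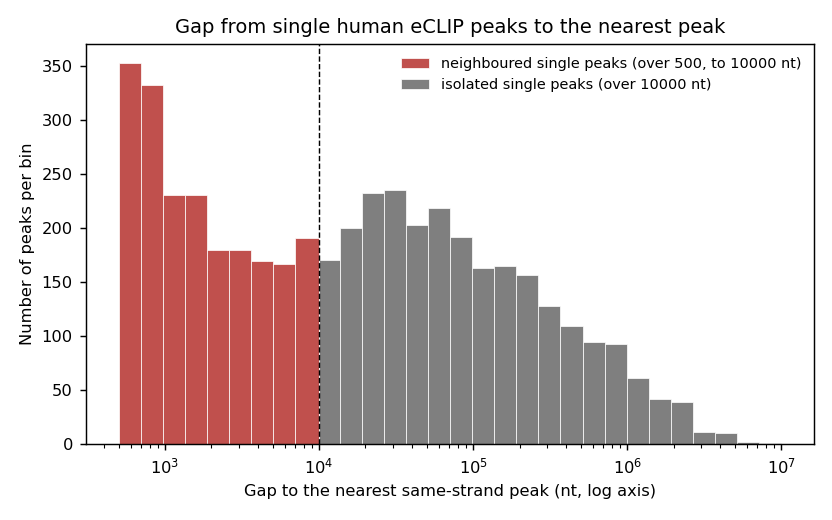
Number of single peaks (vertical axis) against the gap to the nearest same-strand peak in nt (horizontal log axis), with the neighboured single peaks in red, the isolated ones in grey and the limit of 10000 nt dashed. Counts fall from 353 in the first bin to 167 in the bin from 5041 to 7013 nt, and reach 235 among isolated peaks in the bin from 26265 to 36538 nt.

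Peaks just inside the limits of the rule had lower median enrichments than those just outside, but the quartiles overlapped widely. At the lower limit they were 3.23 and 3.86 inside and 3.23 and 3.95 outside. At the upper limit they were 3.18 and 3.84 inside and 3.20 and 3.72 outside. The 200 peaks just inside the lower limit, at 501 to 600 nt from a neighbour, had a median log2 fold enrichment of 3.44, and the 247 peaks at 401 to 500 nt, just outside it, had 3.52. The 47 peaks at 9001 to 10000 nt had a median of 3.36, and the 44 isolated peaks at 10001 to 11000 nt had 3.47. The −log10 p ran the other way at the upper limit, with a median of 7.18 inside and 5.03 outside, and at the lower limit it was 6.36 inside and 6.92 outside. The peak with the shortest gap inside, 501 nt, lies at chr13:33915474-33915619 on the + strand, with a log2 fold enrichment of 3.08, and the peak with the longest, 9987 nt, lies at chr19:16839526-16839571 on the + strand, with 3.44. Outside, the peak at chr7:29881387-29881447 (+) missed the rule with a gap of 500 nt and a log2 fold enrichment of 3.90, and that at chr17:44087077-44087176 (−) missed it with 10027 nt and 3.72.

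Neighbours were found about equally in both directions of transcription. The nearest peak lay upstream of 1038 neighboured single peaks and downstream of 998. A neighbour within 10 kb was on the upstream side alone for 903 peaks, on the downstream side alone for 841 and on both sides for 292. The median log2 fold enrichment of these sets was 3.46, 3.46 and 3.52.

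What the nearest peak belonged to differed more. It was another neighboured single peak for 992 of the 2036 (48.7%), a peak of a group of 2 or 3 for 659 (32.4%), of a group of 4 to 9 for 366 and of a group of 10 or more for 19 (0.933%). Against another single peak, the median log2 fold enrichment was 3.50 in the 992 peaks and 3.52 in their nearest peaks. Beside groups the single peak was usually the weaker. Of the 1044 peaks whose nearest peak was in a group, 423 (40.5%) exceeded that nearest peak and 380 (36.4%) exceeded the median of its group. Beside groups of 4 to 9, the median was 3.43 in the single peaks and 3.72 in the nearest peaks, and 101 of 366 (27.6%) exceeded the group's median. Beside groups of 10 or more it was 3.35 against 3.92, and 3 of 19 did. The −log10 p was likewise lower in the single peaks than in their nearest peaks, with medians of 7.87 and 12.9 beside groups of 4 to 9. Across groups of 2 or 3, 4 to 9 and 10 or more, the single peaks' median −log10 p rose: 5.74, 7.87 and 9.31. Their median enrichment fell: 3.46, 3.43 and 3.35. The last value of each rests on 19 peaks. Beside another neighboured single peak the medians were 5.97 and 3.50, so the rise in −log10 p holds among groups alone.

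Linking same-strand peaks with gaps of at most 10 kb gave 1397 runs that hold a neighboured single peak. Of these, 1029 also hold a group, with 1254 (61.6%) of the peaks, and 368 consist of neighboured single peaks alone, with 782 (38.4%). The median log2 fold enrichment was 3.46 in runs with a group and 3.48 in runs without one. The stricter threshold was met by 14.1% of the peaks in both.

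Of the 368 runs of single peaks alone, 327 were pairs, 39 held 3 peaks, 1 held 5 and 1 held 6. The peaks of a pair lay a median of 1538 nt apart. The median log2 fold enrichment was 3.48 in the upstream and 3.51 in the downstream peak, and the downstream peak was the higher in 170 pairs, the upstream peak in 156. The difference within a pair had a median of 0.37 on the log2 scale, it was at most 0.25 in 112 pairs (34.3%) and over 1 in 29. For scale, the quartiles of all 2036 neighboured single peaks were 3.21 and 3.85. Both peaks met the stricter threshold in 9 pairs, 1 of them in 74 and neither in 244. Of all 2036, 14.1% met it. Whether peaks of a pair were more or less alike than unpaired ones was not tested.

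The pair with the highest lower value lies on the − strand of chromosome 1. Its upstream peak, chr1:169925569-169925736, had a log2 fold enrichment of 4.96 with a −log10 p of 10.3, and its downstream peak, chr1:169922623-169922747, had 5.38 with 9.74, at a gap of 2821 nt. The next pair, on the + strand at chr4:113256980-113257056 and chr4:113257972-113258113, had 4.57 and 4.71. Here both peaks of a pair were strong. The largest difference within a pair was 1.97, on the + strand of chromosome 2. The peak at chr2:97212989-97213095 had a log2 fold enrichment of 3.66, and that at chr2:97214750-97214845, 1654 nt downstream, had 5.63.

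The longest run of single peaks alone, picked like the next after its values were seen, spans 18947 nt on the + strand of chromosome 1, from 81968143 to 81987089. Its 6 peaks, from upstream to downstream, had log2 fold enrichments of 3.25, 3.06, 3.73, 3.34, 3.94 and 4.11, with −log10 p of 3.88, 10.1, 3.81, 5.42, 10.6 and 14.6. The gaps between them were 1030, 5839, 6563, 4451 and 519 nt. The highest values were thus at the downstream end, in the peaks at 81986360 to 81986450 and at 81986970 to 81987089. The run of 5 peaks spans 10877 nt on the − strand of chromosome 4, from 6042793 to 6053669. From upstream to downstream, its log2 fold enrichments were 3.42, 4.29, 3.50, 4.18 and 3.62. In this run the second and the fourth peak were the highest, at 6048673 to 6048775 and at 6046460 to 6046550, and no peak had a −log10 p above 6.30.

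**Figure D3:**
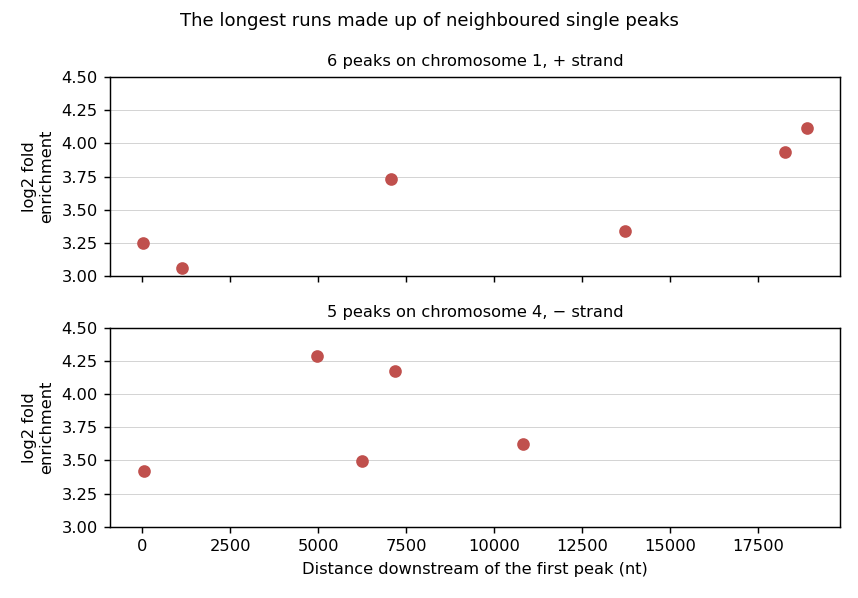
Log2 fold enrichment of +Dox over No Dox (vertical axes) of each peak, against its distance downstream of the first peak in nt (horizontal axis), for the run of 6 peaks on chromosome 1 and the run of 5 on chromosome 4. The highest values are 4.11 at the downstream end of the first run and 4.29 in the second peak of the other.

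The 10 most enriched neighboured single peaks had log2 fold enrichments from 5.08 to 6.33 and −log10 p from 8.05 to 29.1. All 10 exceeded their nearest peak, 7 of them beside a group, and for 8 the nearest peak was upstream. They were chosen for high enrichment, so exceeding the nearest peak says little. Of all 2036, 913 (44.8%) exceeded their nearest peak, and for 1038 (51.0%) it was upstream. The strongest was chr8:72723258-72723345 on the + strand, which spans 88 nt and had a log2 fold enrichment of 6.33 (80.4-fold) and a −log10 p of 21.5. It ranked 19 of the 24831 peaks. It lies 687 nt downstream of a group of 6 peaks with a median log2 fold enrichment of 4.47, and the next same-strand peak downstream is 580708 nt away. It therefore stood at the downstream edge of its run.

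Next came the chromosome 2 peak with 5.63, the chromosome 1 peak with 5.38 and chr22:41235397-41235489 (−) with 5.37, which lies 718 nt downstream of a group of 2. The peak at chrX:139825108-139825210 (−) had 5.23, 863 nt downstream of a group of 6. The peaks at chr16:19172378-19172499 (+) and chr6:89612133-89612377 (+) had 5.18 and 5.15. The last of these was the widest of the 10, at 245 nt, and had the highest −log10 p of them, 29.1. The other 3 were chr17:51045077-51045176 (−) with 5.09, chr7:98903527-98903655 (+) with 5.09 and chr14:50057027-50057175 (−) with 5.08.

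The peaks with the highest −log10 p were others. The 5 at the ceiling of 400, which cannot be ranked by p, had log2 fold enrichments between 3.08 and 3.77, so none of them met the stricter threshold. A pair on the + strand of chromosome 11 accounts for 2. The peak at chr11:63997682-63997766 had 3.08 and that at chr11:63998394-63998481, 627 nt downstream, had 3.77. The other 3 were chr19:10685969-10686044 (+) with 3.35, 704 nt upstream of a group of 10, and on chromosome X the peaks at 53379631 to 53379793 and at 73843660 to 73843690, both on the − strand, with 3.16 and 3.14. Each of these 3 lay next to a group whose median enrichment was also low, between 3.09 and 3.34. Below the ceiling the highest −log10 p was 77.4, at chr7:99404413-99404510 (−), with a log2 fold enrichment of 3.35. The third below the ceiling, chr10:21738567-21738759 (+), combined a −log10 p of 74.0 with a log2 fold enrichment of 4.40.

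**Figure D4:**
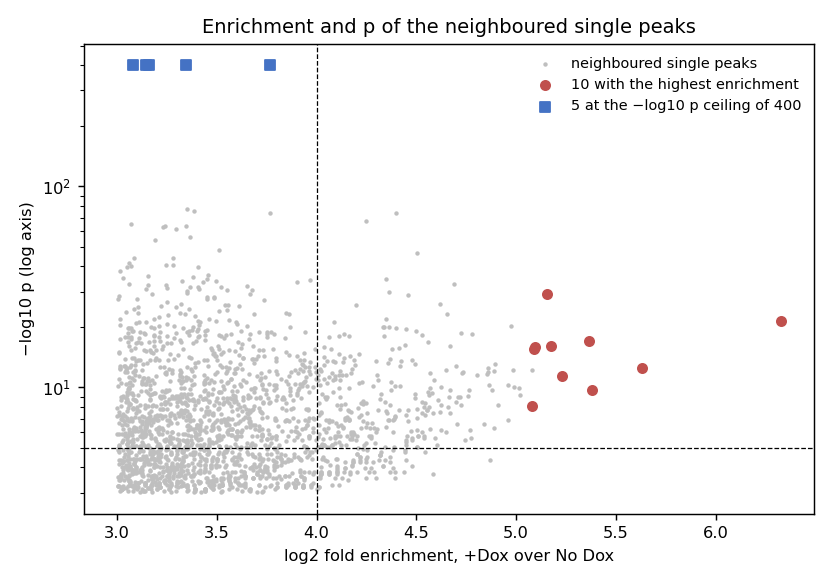
−log10 p (vertical log axis) against log2 fold enrichment of +Dox over No Dox (horizontal axis) for the 2036 neighboured single peaks, with the stricter threshold dashed. The 10 most enriched peaks (red) have −log10 p from 8.05 to 29.1, and the 5 peaks at the ceiling of 400 (blue) have log2 fold enrichments from 3.08 to 3.77.

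Among the neighboured single peaks, the narrowest had the lowest median enrichment. Between classes it ran the other way. The median width was 100 nt in isolated peaks, with a median enrichment of 3.43, and 57 nt in groups of 10 or more, with 4.08. In the narrowest 679 of the neighboured single peaks, 9 to 81 nt wide, the median log2 fold enrichment was 3.39 and 8.54% met the stricter threshold. In the middle 678 these values were 3.51 and 14.6%, and in the widest 679, 112 to 304 nt wide, 3.52 and 19.1%. The narrowest peak, chr17:49047899-49047907 (+), spanned 9 nt and had a log2 fold enrichment of 3.59 and a −log10 p of 3.53. The widest, chr22:24049402-24049705 (+), spanned 304 nt and had 4.72 and 18.7.

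Neighboured single peaks were found on 23 chromosomes and on 1 unplaced sequence. They made up 5.85% of the peaks of chromosome 20 (49 of 838) and 11.3% of those of chromosome 18 (62 of 550), the lowest and the highest share of the 23 chromosomes. The share over the whole list was 8.20%. The 95% Wilson intervals of the shares cover counting error only. They were not used as a test, since membership rests on the peak positions that the rule used. Peaks that share a run are not independent, so these intervals are too narrow. Against all single peaks of a chromosome, the share was highest on chromosome 22, at 58.4% (87 neighboured and 62 isolated), and lowest on chromosome 5, at 38.7% (75 and 119). The median log2 fold enrichment of the neighboured single peaks differed little between chromosomes, from 3.34 on chromosome X to 3.54 on chromosome 14.

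**Figure D5:**
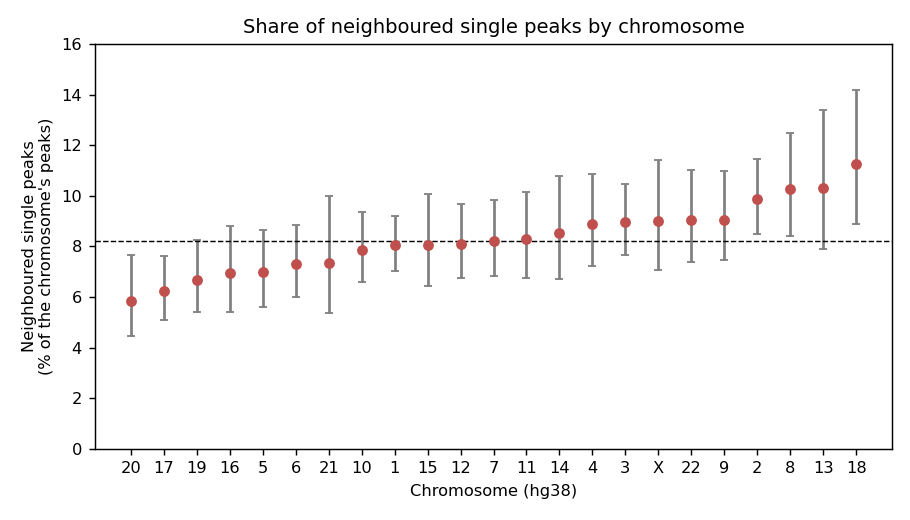
Neighboured single peaks as % of all peaks of each chromosome (vertical axis) for 23 chromosomes of hg38 in order of the share (horizontal axis), with 95% Wilson intervals and the 8.20% of the whole list dashed. The share runs from 5.85% on chromosome 20 to 11.3% on chromosome 18.

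Signal on the opposite strand was rare. An opposite-strand peak within 10000 nt was found for 12 of the 2036 neighboured single peaks (0.589%), against 0.842% of all peaks, and within 500 nt for 2. Both lie on the − strand of chromosome 19, where the opposite strand has a group of 4 to 9 peaks. The peak at chr19:41319319-41319357 overlaps a + strand peak at chr19:41319275-41319320 by 2 nt, with log2 fold enrichments of 3.30 and 4.20, and that at chr19:41318641-41318711 lies 242 nt from a + strand peak, with 3.30 and 4.15.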

How the data were processed

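The eCLIP libraries followed a single-end protocol with a random identifier on each cDNA. Per the study's methods, umi_tools handled the identifiers and duplicate removal, cutadapt the adapters, STAR the alignment (hg38 plus the minigene, after reads matching human repeats and rRNA were set aside) and CLIPper the peak calls. The deposited −log10 p-value of a peak is the authors', from a chi-square test with Yates' correction, or Fisher's test where reads were few. The deposited log2 fold enrichment is the authors' ratio of reads in the peak, each library scaled by its total after duplicate removal. How replicates were merged is not given in the sources used here. Setting repeat reads aside can lower coverage in repeats.

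Here 1 of the 3 deposited lists was used, the human one. Gaps, classes and medians were computed with Python 3.11.15, pandas 2.3.3, numpy 2.4.6 and scipy 1.17.1, and plotted with matplotlib 3.10.9. The classification was checked on simulated data. There, neighboured single peaks came only as separate pairs, so those beside groups or in longer runs were not covered by this check. No test was run, since the peaks were chosen from the comparison that gives their values. Members, lists and named peaks were chosen with earlier results of these data known. Named peaks were the 10 most enriched, the 5 with the highest −log10 p, those nearest the gap limits, and the widest and narrowest. The spacing of values was measured after seeing the data. Named pairs, long runs and opposite-strand peaks, and the 5 highest −log10 p below the ceiling, were chosen after their values were seen. Genes, introns, gene lists and motifs were not analysed here, since no human annotation or sequence was used.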

Additional observations from a re-analysis of the deposited data

How the results depend on the processing

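No paired analysis was possible because each peak has 1 value after the authors' merging of replicates, so leaving out single replicates was not possible either. With an upper gap limit of 5000 or 20000 nt the number of neighboured single peaks was 1675 or 2431. Their median log2 fold enrichment was then 3.48 or 3.47 and their median −log10 p 6.15 or 6.09. The median width was 95 nt under both limits. A lower gap limit of 100 nt gave 5051 peaks, with a median log2 fold enrichment of 3.51, a median −log10 p of 6.92, a median width of 89 nt, 817 peaks past the stricter threshold and a difference of 0.076 from isolated peaks. A lower limit of 1000 nt gave 1331 peaks with 3.44, 5.97, 98 nt, 167 past the threshold and a difference of 0.0053 from isolated peaks. Joining abutting peaks first, with each joined region given the highest value of its peaks, gave 2472 peaks with medians of 3.54, 6.97 and 104 nt, 492 past the threshold and a difference of 0.071 from isolated peaks. With peaks of the stricter threshold alone, there were 530 neighboured single peaks, all 530 past it by construction, with medians of 4.29, 11.5 and 91 nt, and the difference from isolated peaks reversed, from 0.037 to -0.0042. The cause of the reversal was not tested. The difference from groups of 2 or 3 was negative under all 7 alternatives run on it. Ignoring strand, an alternative chosen after seeing the data, gave 2050 peaks with medians of 3.47, 6.19 and 95 nt. Leaving out the 5 peaks at the ceiling left the median log2 fold enrichment at 3.47. The alternatives for genes, introns, GCATG motifs and nearest peaks in the same gene were not run, since no human annotation or sequence was used here. Depth is unknown, so a stretch with no neighbour may hold one below the limits of the list.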

Other observations

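The unplaced sequence of chromosome 14 (GL000194v1) holds 1 neighboured single peak, on the − strand from 109879 to 109975, with a log2 fold enrichment of 4.04 and a −log10 p of 15.8. Its nearest peak lies 2226 nt upstream in a group of 2 and had 3.17.

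The log2 fold enrichments of the 2036 neighboured single peaks took 1306 distinct values at 9 decimals. The most common, 3.21, was shared by 12 of them, and 986 values belonged to 1 peak each. Over the classes of the list, the share of peaks with a value found more than once fell from 84.9% in isolated peaks through 78.8% in neighboured single peaks and 72.0% in groups of 2 or 3 to 51.3% in groups of 4 to 9 and 19.5% in groups of 10 or more. A step of 0.5 to another listed value was found for 63.1% of all peaks, steps of 0.4 and 0.6 for 3.22% and 2.75%. What repeats and spaces the values was not tested.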
